A study of Homo sapiens with 5 samples.

Results

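Genes of the machine that carries a cell out of G1 and into S phase were followed in MDA-MB231 cells sorted by how firmly they hold to their surface. They are the D cyclins CCND1 and CCND3, the E cyclins CCNE1 and CCNE2, the kinases CDK2, CDK4 and CDK6, and the Cip/Kip inhibitors CDKN1A, CDKN1B and CDKN1C. Members were the rows of the count table with these symbols: 10 of 25382 genes, all 10 of which passed the filter on low counts that left 13297 genes to test. MDA-MB231 is a human triple-negative breast cancer line. The first group, weakly adherent cells, has 3 libraries dated 6, 12 and 15 March, and the second, strongly adherent cells, has 2 libraries dated 6 and 15 March. Both populations were taken from the same kind of heterogeneous culture, in DMEM with 10% serum, by applying shear stress, with no other treatment named, so what the cells carried before the shear and what the shear changed cannot be told apart. Nothing in the labels states that the libraries came from separate cultures, so a p-value measures the spread between these libraries, which may be partly technical.

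Gene counts per library ran from 19630386 to 21707459, and the 10 genes held 0.157% to 0.179% of them. The line's own markers were abundant in both groups: VIM averaged 2554 ± 85.1 CPM (counts per 1000000 gene counts, with TMM scaling) in weakly and 2699 ± 66.7 CPM in strongly adherent cells (SD, n = 3 and n = 2), while ESR1 and PGR, the oestrogen and progesterone receptor genes, were at 0 reads in all 5 libraries. Other luminal markers expected low were not all so. In weakly and strongly adherent cells ERBB2 averaged 86.0 and 88.3 CPM, EPCAM 23.7 and 20.3, and GATA3 12.5 and 13.7. CDH1 averaged 1.36 and 1.67 CPM, and FOXA1 0.0317 and 0.0455. Of 9 markers of other cell types, 2 had enough reads to be tested and 0 passed; COL1A1, a fibroblast collagen, stood at 13.0, 12.7 and 11 CPM in weakly and 10.8 and 7.23 CPM in strongly adherent cells, and with the date as a block it was called higher (edgeR adjusted p = 0.014). The summed level of those 9 was 12.8 to 14.3 CPM in weakly and 8.09 to 11.8 CPM in strongly adherent cells.

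In G1, D cyclins made in response to growth signals bind CDK4 or CDK6 and begin to phosphorylate the retinoblastoma protein. E2F factors are then freed, they switch on the E cyclins and the genes of DNA replication, and cyclin E with CDK2 completes the step into S phase. The Cip/Kip proteins p21 (CDKN1A), p27 (CDKN1B) and p57 (CDKN1C) inhibit cyclin E and CDK2, and p21 and p27 also help cyclin D and CDK4 to assemble. Much of this control acts on protein stability and phosphorylation, which a count of messenger RNA does not show.

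The promoters of CCNE1 and CDKN1A, the 2 members that fell with or without the shared date as a block in the fit, and of CDK6, the only one that rose with it, are shown as the 250 bases before the start site, 5′ to 3′ on the gene's strand, from RefSeq (GRCh38.p14). Capitals mark GC boxes, the letters GGGCGG on either strand, to which Sp1 family factors bind.
CCNE1 (chr19:29811741-29811990, plus strand): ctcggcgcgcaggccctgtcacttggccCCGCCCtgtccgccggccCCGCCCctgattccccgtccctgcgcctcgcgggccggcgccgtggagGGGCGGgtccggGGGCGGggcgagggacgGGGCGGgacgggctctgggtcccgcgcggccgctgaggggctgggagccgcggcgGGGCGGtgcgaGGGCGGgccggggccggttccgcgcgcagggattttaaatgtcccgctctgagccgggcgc
CDKN1A (chr6:36678464-36678713, plus strand): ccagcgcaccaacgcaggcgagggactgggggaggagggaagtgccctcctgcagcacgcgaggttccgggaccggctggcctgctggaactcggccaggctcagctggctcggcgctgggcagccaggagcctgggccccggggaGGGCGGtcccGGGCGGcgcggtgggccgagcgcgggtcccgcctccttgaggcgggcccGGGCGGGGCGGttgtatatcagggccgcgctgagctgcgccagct
CDK6 (chr7:92836574-92836823, minus strand): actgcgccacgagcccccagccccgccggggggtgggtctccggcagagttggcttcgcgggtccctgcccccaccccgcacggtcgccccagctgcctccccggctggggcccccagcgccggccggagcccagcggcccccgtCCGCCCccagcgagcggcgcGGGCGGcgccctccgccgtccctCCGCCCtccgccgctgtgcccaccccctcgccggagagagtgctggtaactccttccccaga
CCNE1 had 7 such matches, CDK6 3 and CDKN1A 4, the pair nearest the start of CDKN1A overlapping by a base. CDK4 also had 3 matches and CDKN1B 1, the 3 starts of CCND3 had 5, 2 and 0, and the second start of CDK6 had 0. Of 35116 windows of this length in the table, 42.6% held at least 1 match and 24.3% at least 2. The table matched 6 of the 10 members by symbol: CCND3, CCNE1, CDKN1A, CDKN1B, CDK4 and CDK6. The E-box CACGTG, to which MYC binds, occurred 3 times before CDK4 and in no other window of a member, against 6.34% of all windows with at least 1 and 0.535% with at least 2. None of the members' windows held TATAAA or any of 4 E2F words (TTTCGCGC, TTTGGCGC, TTTCCCGC, TTTGCCGC, either strand), which 10.7% and 2.79% of all windows held. For CCND3 and CDK6 the table gives more than 1 start, and the CDK6 window shown is that of the first start listed.

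Weakly adherent cells had less RNA of cyclin E1 and of p21, and in 7 of the 10 genes all 3 weakly adherent libraries lay below both strongly adherent ones: CCND1, CCND3, CCNE1, CCNE2, CDKN1A, CDK2 and CDK4. A gene was called where the Benjamini-Hochberg adjusted p of the quasi-likelihood test in edgeR was under 0.05. By this rule 2 of 10 members fell and 0 rose, where 2.68% of all genes tested were called, 0.918% lower and 1.77% higher. That is 235 genes higher and 122 lower, a split that was 183 and 175 with each library's trend with transcript length removed and 127 and 138 with that of coding length removed. DESeq2's test called 2 lower and 0 higher, and 6 members had an unadjusted p under 0.05 in edgeR, against 14.2% of all genes. Groups that do not overlap, with weakly adherent cells lower, occurred in 14.5% of all genes tested, and in either direction in 30.0%. The members' median log2 fold change (weakly minus strongly adherent) was -0.17, against -0.0005 over all genes. With the date the 2 groups share as a block, a fit with 1 residual degree of freedom, 5 members fell and 1 rose, where 11.5% of all genes were called, 5.28% lower and 6.20% higher. The weakly adherent 12 March library is alone on its date, so that fit takes the difference from the pairs of 6 and 15 March. Standard errors there draw on the spread over all genes, so a small adjusted p need not reflect how far the pairs of a gene agree. These are bulk libraries: a lower level per cell and fewer cells in the phase that expresses a gene cannot be told apart. Exons of CCNE2, CDK2 and CDK4 overlap those of INTS8, PMEL and TSPAN31 on the opposite strand, and the strand setting of the counting is not given in the sources used here. Those 3 neighbours had 722 to 824, 14 to 28 and 282 to 363 reads per library, with log2 fold changes of -0.07, -0.28 and 0.11, and none was called. CCND1 overlaps LTO1 and CDKN1A overlaps DINOL in the same way, and CCND3, CCNE2, CDK2 and CDK6 each overlap a non-coding gene. LTO1, DINOL and these non-coding genes matched no symbol in the count table, so reads from them could not be set beside those of the members.

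**Figure D1:**
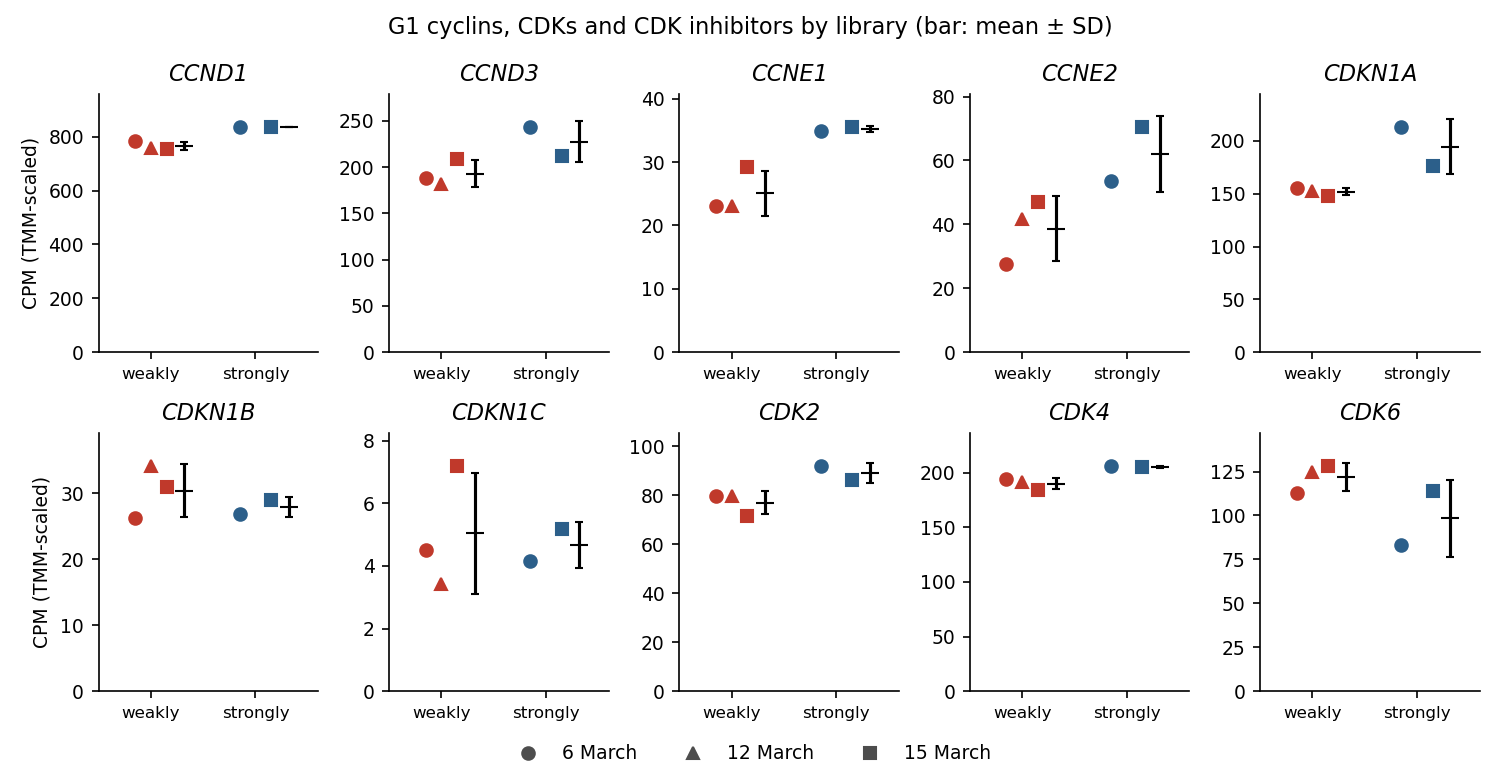
TMM-scaled CPM (y axis, from 0) of each of the 10 genes in the 3 weakly adherent libraries (red, left) and the 2 strongly adherent ones (blue, right), with marker shape for the date and a bar for mean ± SD. All weakly adherent points lie below both strongly adherent ones for 7 genes, while CDKN1B, CDKN1C and CDK6 overlap.

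The E cyclins showed the largest differences. CCNE1, the cyclin that activates CDK2 at the G1/S border, had 23.0, 23.0 and 29.2 CPM in weakly adherent cells (6, 12 and 15 March), against 34.9 and 35.5 CPM in strongly adherent cells (6 and 15 March). The groups did not overlap, and the strongly adherent libraries were almost level while the weakly adherent one of 15 March stood above the other two. CCNE1 fell 1.40-fold (log2 fold change -0.49, SE 0.11, edgeR adjusted p = 0.040). This call held with the date block (edgeR adjusted p = 3.9e-05). It ended without the strongly adherent 6 March library (edgeR adjusted p = 0.15) or that of 15 March (0.15). It also ended without the weakly adherent 6 March library (0.082) or that of 12 March (0.13), and stood without that of 15 March (0.014). The log2 fold change stayed between -0.61 and -0.43 in those 5 fits.

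CCNE2, the second E cyclin, had 27.5, 41.7 and 46.9 CPM in weakly adherent cells, against 53.5 and 70.4 CPM in strongly adherent cells. The groups did not overlap, yet both groups spread widely, with the libraries of 6 March lowest in each. Without a block the log2 fold change of -0.68 (SE 0.22, 95% interval -1.19 to -0.17) was not called (edgeR adjusted p = 0.20). With the date block CCNE2 fell 1.69-fold (log2 fold change -0.76, SE 0.08, edgeR adjusted p = 1.6e-19). That SE draws on the spread over all genes, and the pairs of 6 and 15 March gave -0.96 and -0.59. Leaving out the strongly adherent 15 March library gave -0.46, the smallest change of the 5 such fits, and no such fit called the gene. Reads of CCNE1 per read of CCNE2 were 0.838, 0.551 and 0.623 in weakly and 0.652 and 0.504 in strongly adherent libraries, so the balance between the E cyclins overlapped between the groups. Together the E cyclins had 50.6, 64.7 and 76.1 CPM in weakly and 88.4 and 106 CPM in strongly adherent cells.

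The D cyclins, which carry growth factor signals to CDK4 and CDK6, differed less. CCND1 had 783, 758 and 755 CPM in weakly adherent cells, against 835 and 835 CPM in strongly adherent cells. The groups did not overlap, but the log2 fold change of -0.13 (SE 0.07, 95% interval -0.28 to 0.03) was not called without the block (edgeR adjusted p = 0.48) or with it (0.27). CCND3 had 188, 182 and 209 CPM in weakly adherent cells, against 243 and 212 CPM in strongly adherent cells. Its groups were separated by the narrow gap between the 2 libraries of 15 March. The log2 fold change of -0.24 (SE 0.08) was not called without the block (edgeR adjusted p = 0.20), and with the block CCND3 fell (log2 fold change -0.19, edgeR adjusted p = 0.032); that call ended with the trend with transcript length (0.071) or coding length (0.15) removed from each library. Without the strongly adherent 6 March library its log2 fold change was -0.13. Reads of CCND1 per read of CCND3 were 4.16, 4.15 and 3.61 in weakly and 3.43 and 3.95 in strongly adherent libraries, which overlap. CCND2, the third D cyclin, named here after its values were seen, had 0.855, 0.919 and 0.864 CPM in weakly and 1.41 and 1.45 CPM in strongly adherent cells (edgeR adjusted p = 0.25).

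Of the kinases, none was called without the block, and CDK2 and CDK6 were called in opposite directions with it. CDK2, the partner of the E cyclins, had 79.6, 79.8 and 71.5 CPM in weakly adherent cells, against 91.8 and 86.2 CPM in strongly adherent cells. The groups did not overlap; the log2 fold change of -0.21 (SE 0.08) was not called without the block (edgeR adjusted p = 0.23), and with it CDK2 fell 1.18-fold (edgeR adjusted p = 0.0090), or at 0.055 with the coding length trend removed as well. CDK4, a partner of the D cyclins, had 194, 192 and 184 CPM in weakly adherent cells, against 206 and 205 CPM in strongly adherent cells, a log2 fold change of -0.12 (SE 0.07, 95% interval -0.26 to 0.03) that was not called with or without the block (edgeR adjusted p = 0.25 and 0.52).

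CDK6, the other partner of the D cyclins, was the only kinase of the 3 with a positive log2 fold change. It had 113, 125 and 128 CPM in weakly adherent cells, against 83.0 and 114 CPM in strongly adherent cells. The groups overlapped, since the strongly adherent 15 March library lay above the weakly adherent one of 6 March, while the strongly adherent 6 March library was the lowest of the 5. The log2 fold change of 0.31 (SE 0.13) was not called without the block (edgeR adjusted p = 0.31), and with it CDK6 rose 1.23-fold (log2 fold change 0.30, SE 0.07, edgeR adjusted p = 0.00025). Without the strongly adherent 6 March library the log2 fold change was 0.10 (edgeR adjusted p = 0.86), and without that of 15 March it was 0.56 (0.013). Reads of CDK4 per read of CDK6 were 1.72, 1.54 and 1.44 in weakly adherent libraries, against 2.48 and 1.81 in strongly adherent ones. This ratio does not depend on library scaling, and it did not overlap between the groups. It sets a transcript of 2076 bases against one of 11612, so it still holds any trend with length. Reads of CDK2 per read of CDK6 were 0.707, 0.638 and 0.559 in weakly and 1.11 and 0.758 in strongly adherent libraries, without overlap. This second ratio was not among those planned, and it is not independent of the first, since both hold the reads of CDK6.

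CDK6 also has by far the longest annotated transcript of the 10 genes, 11612 bases against 4307 for CCND1, the next. Over all genes the log2 fold change moved with transcript length: its median was 0.19 for the 531 genes with transcripts over 10 kb, 0.08 for 8 to 10 kb, and between -0.02 and 0.03 in each class under 8 kb. With each library's trend with transcript length removed, the log2 fold change of CDK6 was 0.13 (SE 0.10, edgeR adjusted p = 0.68), or 0.11 with the date block as well (0.36), and the call with the block ended. With the trend with coding length removed it was 0.35 (edgeR adjusted p = 0.14), or 0.34 with the date block (6.3e-05), the coding sequence being 981 bases. Which transcript of CDK6 these cells make is not known, and the part of transcript length in its difference was not tested further.

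**Figure D2:**
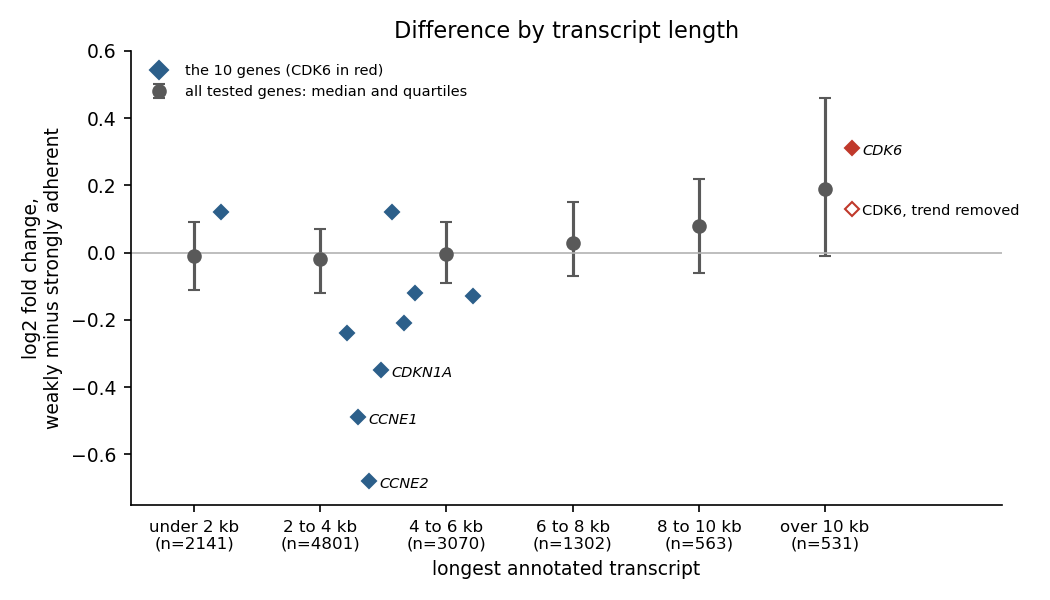
Log2 fold change, weakly minus strongly adherent (y axis), by class of longest annotated transcript (x axis): grey points and bars are the median and quartiles of all tested genes, blue diamonds 9 of the members and the red diamond CDK6. CDK6 lies at 0.31 in the class over 10 kb, whose median is 0.19, and the open diamond shows CDK6 at 0.13 after the length trend was removed.

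Among the Cip/Kip inhibitors, p21 fell and p27 and p57 did not pass. CDKN1A, whose product halts the cycle after damage, had 155, 153 and 148 CPM in weakly adherent cells, against 213 and 176 CPM in strongly adherent cells. The 3 weakly adherent libraries lay close together, and the strongly adherent 6 March library was well above that of 15 March. CDKN1A fell 1.28-fold (log2 fold change -0.35, SE 0.08, edgeR adjusted p = 0.047), a call just inside the threshold that held with the date block (4.8e-06). It ended without the strongly adherent 6 March library, where the log2 fold change was -0.21 (edgeR adjusted p = 0.52), and without the weakly adherent 6 March library (0.052) or those of 12 March (0.14) or 15 March (0.15), and stood without the strongly adherent 15 March library (0.014). It also missed the threshold with limma-voom (adjusted p = 0.057), with at least 1 CPM asked in 2 libraries (0.051) and with the transcript or coding length trend removed (0.051 and 0.059).

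CDKN1B, the inhibitor that accumulates in resting cells, had 26.2, 34.1 and 30.9 CPM in weakly adherent cells, against 26.9 and 29 CPM in strongly adherent cells. The groups overlapped, with the lowest and the highest library both weakly adherent, and the log2 fold change was 0.12 (95% interval -0.13 to 0.37, edgeR adjusted p = 0.75), between 0.03 and 0.22 with 1 library left out. CDKN1C, an imprinted gene expressed from the maternal copy, was low, with 95, 67 and 158 reads in weakly and 88 and 114 reads in strongly adherent libraries. At 4.51, 3.42 and 7.18 CPM in weakly and 4.14 and 5.18 CPM in strongly adherent cells it gave a log2 fold change of 0.12 with a 95% interval of -0.55 to 0.78, which takes in changes in both directions; its SE was 0.29 without the block and 0.18 with it. Its sign turned without the weakly adherent 15 March library (-0.22) and without the strongly adherent 6 March library (-0.03). Reads of CDKN1A per read of CDKN1B were 5.92, 4.48 and 4.81 in weakly adherent libraries, against 7.93 and 6.05 in strongly adherent ones, without overlap, the nearest being the 2 libraries at 5.92 and 6.05. Reads of CDKN1A per read of CDKN1C were 34.4, 44.7 and 20.7 in weakly and 51.5 and 33.9 in strongly adherent libraries, which overlap.

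**Figure D3:**
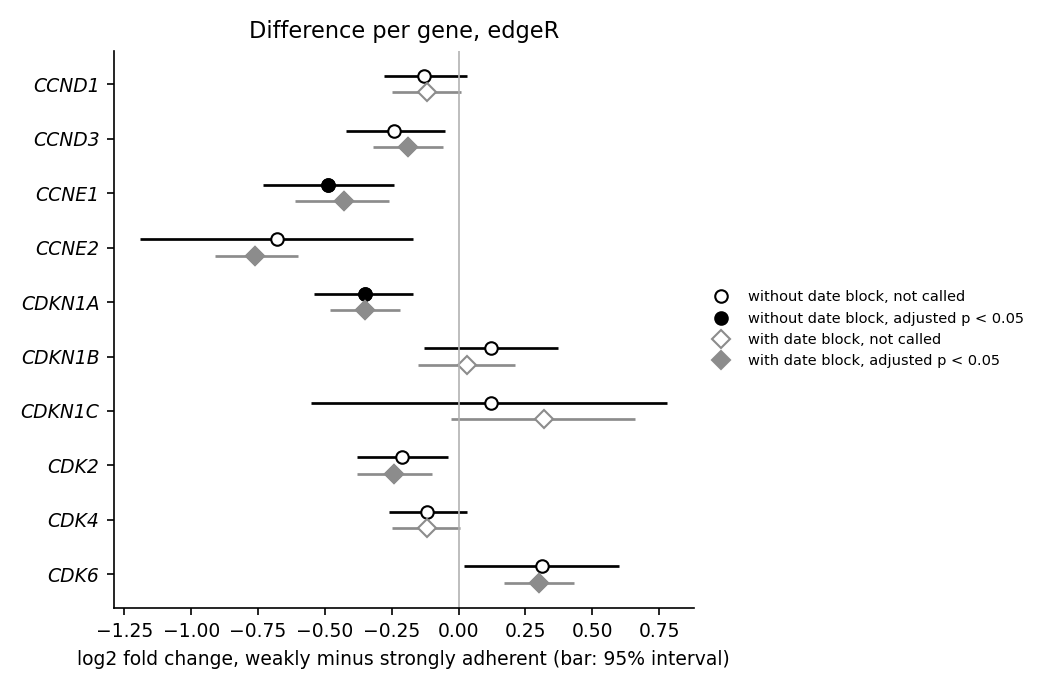
Log2 fold change per gene, weakly minus strongly adherent (x axis), with its 95% interval, from edgeR without (black circles) and with (grey diamonds) the date block; filled symbols passed an adjusted p of 0.05. CCNE1 and CDKN1A passed in both fits, and CCND3, CCNE2, CDK2 and CDK6 only with the block.

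Both dates gave the same sign for 9 of the 10 genes: 7 were lower and 2 (CDKN1C and CDK6) higher in the weakly adherent library of each pair. Over all genes tested, 31.0% were lower and 31.9% higher in both pairs. The log2 difference within the pairs of 6 and of 15 March was -0.96 and -0.59 for CCNE2, -0.60 and -0.28 for CCNE1, and -0.46 and -0.24 for CDKN1A. For CCND3 it was -0.37 and -0.02, so that nearly the whole difference lay in the pair of 6 March, and for CDK6 0.44 and 0.17. CCND1, CDK2 and CDK4 differed slightly more in the pair of 15 March (-0.15, -0.27 and -0.16) than in that of 6 March (-0.09, -0.21 and -0.09). Each pair holds 1 library per side, so these are values with no test.

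Of the 10 genes, 3 differed between the dates. In the 4 libraries of 6 and 15 March, with adhesion as a covariate and 1 residual degree of freedom, 3 of 10 members rose and 0 fell from the earlier to the later date, where 9.29% of 13249 genes were called, 6.74% higher and 2.55% lower. CCNE2 was 1.48-fold higher on 15 March than on 6 March (log2 fold change 0.56, SE 0.08, edgeR adjusted p = 7.6e-10), CDK6 1.24-fold higher (0.31, SE 0.07, adjusted p = 0.00030) and CDKN1C 1.42-fold higher (0.50, SE 0.17, adjusted p = 0.042, or 0.053 with no filter on low counts). CDKN1A had a log2 fold change of -0.18 with the date (edgeR adjusted p = 0.077). The weakly adherent 12 March library, which has no strongly adherent partner, was the highest of all 5 for CDKN1B and the lowest for CCND3 and CDKN1C.

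**Figure D4:**
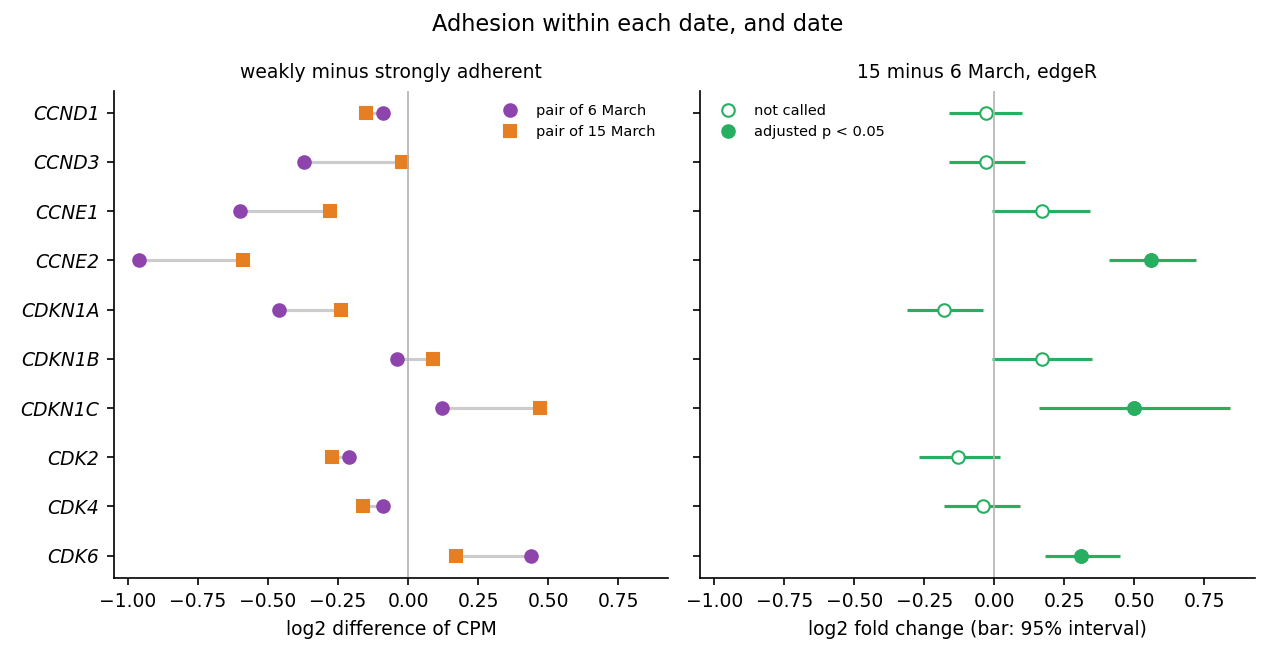
Left, log2 difference in CPM, weakly minus strongly adherent, within the pair of 6 March (circles) and of 15 March (squares) for each gene; right, log2 fold change of 15 minus 6 March from edgeR with its 95% interval, filled where the adjusted p was under 0.05. Signs match in both pairs except for CDKN1B, and CCNE2, CDKN1C and CDK6 are higher on 15 March.

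Per kilobase of the longest transcript, CCND1 had the highest level, 178 ± 3.67 CPM per kb in weakly and 194 ± 0.0825 CPM per kb in strongly adherent cells (SD, n = 3 and n = 2). CDK4 (91.4 ± 2.51 CPM per kb in weakly adherent cells), CCND3 (80.7 ± 5.92), CDKN1A (67.1 ± 1.56) and CDK2 (29.6 ± 1.83) followed on the same scale. CCNE1, CCNE2, CDKN1B and CDK6 came next at 12.3 ± 1.74, 11.6 ± 3.01, 11.4 ± 1.49 and 10.5 ± 0.703 CPM per kb in weakly adherent cells, neighbours that do not differ beyond their spread there. In strongly adherent cells the same 4 stood at 17.2 ± 0.198, 18.6 ± 3.59, 10.5 ± 0.552 and 8.47 ± 1.87 CPM per kb, so there both E cyclins lay above CDKN1B and CDK6 by more than the spread. CDKN1C was lowest, at 2.60 ± 0.999 CPM per kb in weakly and 2.41 ± 0.380 in strongly adherent cells. Per kilobase of coding sequence CDK6 was the fifth at 124 ± 8.33 CPM per kb and CDKN1A the second at 307 ± 7.16, so the place of CDK6 depends on the length used.

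Many genes of DNA replication were lower in weakly adherent cells. Of 20 E2F targets of the G1/S transition, 10 fell and 0 rose without the block, where 0.918% of all genes fell and 1.77% rose. This list was chosen with earlier results of these data known. With the block 18 fell and CCNA2, which is also in the list of other cyclins, rose. Over all genes those shares were 5.28% and 6.20%. Without the block 19 of the list had a value below 0, and the list's median log2 fold change was -0.31. The replicative helicase subunit MCM6 had 111, 112 and 123 CPM in weakly adherent cells, against 179 and 176 CPM in strongly adherent cells. MCM2 and MCM3, of the same helicase, fell 1.40-fold and 1.31-fold, and the uracil glycosylase UNG 1.44-fold. The calls on MCM6, MCM2 and UNG held whichever library was left out, and that on MCM3 ended without the strongly adherent 6 March library (edgeR adjusted p = 0.12), that of 15 March (0.062) or the weakly adherent one of 12 March (0.060). Fewer E2F targets fell whichever library was left out, with 7, 5 and 7 called without the weakly adherent library of 6, 12 or 15 March. Over all genes, calls lower also dropped in these fits, to 56 without the weakly adherent 12 March library against 122.

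**Figure D5:**
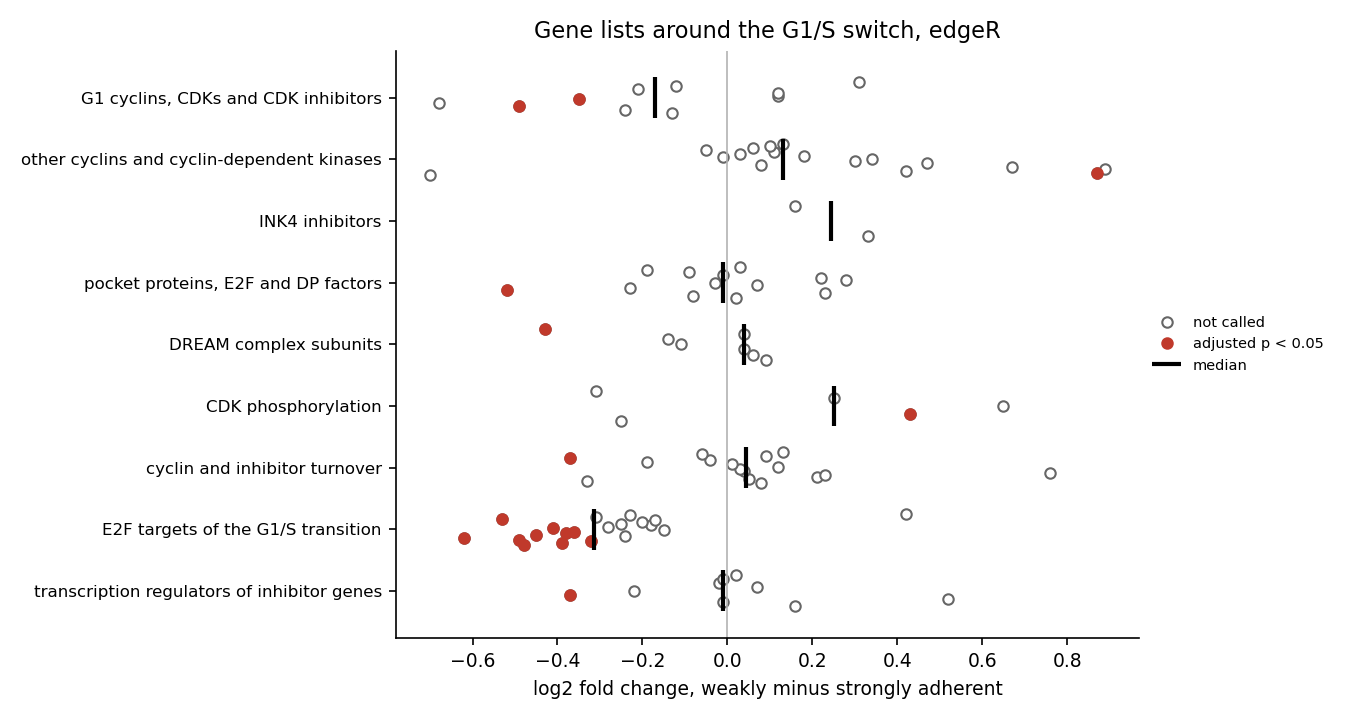
Log2 fold change, weakly minus strongly adherent (x axis), of every tested gene in each list (1 row per list); red points passed an edgeR adjusted p of 0.05 and black bars are list medians. The E2F targets lie mostly left of 0 (median -0.31), and the other cyclins and CDKs mostly right of it (median 0.13).

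E2F1, the factor that drives many of those targets, had 107, 120 and 125 CPM in weakly adherent cells, against 169 and 168 CPM in strongly adherent cells. It fell 1.43-fold (log2 fold change -0.52, SE 0.08, edgeR adjusted p = 0.0036). This call held whichever library was left out. It was the only one of 13 pocket protein, E2F and DP genes to pass, and 4 fell with the block (list median -0.01). Over all genes tested 0.918% fell, or 5.28% with the block. RB1, which encodes the retinoblastoma protein, had 60.9, 86.7 and 79.6 CPM in weakly and 69.0 and 80.6 CPM in strongly adherent cells, with overlap and a log2 fold change of 0.02 that turned to -0.10 with the block. Of 7 DREAM complex subunits, which hold cell cycle genes silent in resting cells or, with MYBL2, activate them later, only MYBL2 fell (1.34-fold, edgeR adjusted p = 0.015; 0.17 without the strongly adherent 6 March library and 0.065 without the weakly adherent one of 15 March); the list median was 0.04.

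A list of 18 other genes held cyclins and CDKs of all phases and of transcription, with CCND2 and the CDK7 assembly factor MNAT1 among them. Of these, 17 were tested, 1 rose and 0 fell, where 1.77% of all genes rose and 0.918% fell. In 3 the value was below 0, and the median log2 fold change was 0.13. CCNA1, a second cyclin A best known from the germ line, had 13.4, 11 and 8.86 CPM in weakly adherent cells, against 6.87 and 5.27 CPM in strongly adherent cells, and rose 1.83-fold (edgeR adjusted p = 0.038). That call stood only without the weakly adherent 15 March library (0.016) among the fits with 1 library left out, and the others gave 0.069 and 0.23 without the strongly adherent libraries of 6 and 15 March and 0.051 and 0.11 without the weakly adherent ones of 6 and 12 March. It also ended with limma-voom (adjusted p = 0.052), while DESeq2 called 5 of the list higher. With the date block 5 rose, where 6.20% of all genes did. They were CCNA1, CCNA2, CCNB1, CCNB2 and CCNF, and the last 4 are named here after their values were seen. The mitotic cyclin CCNB1 had 596, 589 and 401 CPM in weakly and 306 and 265 CPM in strongly adherent cells. Cyclin B1 RNA is known to peak in G2 and mitosis, the share of cells in each phase was not measured, and its part in the differences of the 10 genes was not tested.

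Of 5 phosphatases and kinases that set CDK activity, CDC25B, which activates CDKs at the entry to mitosis, rose 1.34-fold (edgeR adjusted p = 0.038), and 2 rose and 2 fell with the block. The call on CDC25B ended without the strongly adherent 6 March library (0.083) or that of 15 March (0.27) and without the weakly adherent one of 12 March (0.093). Over all genes tested, 0.918% fell and 1.77% rose, or 5.28% and 6.20% with the block. Of 16 genes of cyclin and inhibitor turnover, 1 fell and 0 rose, with a median of 0.05, and with the block 3 fell and 1 rose. The gene that fell was DTL, which targets p21 and CDT1 for degradation in S phase (1.29-fold lower, edgeR adjusted p = 0.047); leaving out any 1 library ended the call, at 0.066 to 0.34, and so did limma-voom and asking for at least 1 CPM in 2 libraries (adjusted p = 0.051 each). SKP2, which targets p27 for degradation, had 37.0, 37.5 and 42.7 CPM in weakly adherent cells, against 47.2 and 50.8 CPM in strongly adherent cells. Its log2 fold change of -0.33 was not called without the block (edgeR adjusted p = 0.095), and with the block SKP2 fell (edgeR adjusted p = 0.0032). With no filter on low counts and no block, 2 of the 16 turnover genes fell.

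Neither INK4 inhibitor that could be tested passed without the block. CDKN2A and CDKN2B, whose locus is known to be deleted in this line, were at 0 reads in all 5 libraries, which allows up to 0.136 to 0.153 CPM (3 reads) per library. CDKN2C (p18) had 65.3, 74.2 and 55.2 CPM in weakly and 54.0 and 49.3 CPM in strongly adherent cells (log2 fold change 0.33, edgeR adjusted p = 0.20, and 0.033 with the block), and CDKN2D (p19) had a log2 fold change of 0.16, which was 0.32 without the strongly adherent 6 March library and 0.02 without that of 15 March.

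With the block 2 of 9 transcription regulators of inhibitor genes fell and 1 rose, where 5.28% of all genes fell and 6.20% rose. Without it 1 fell and 0 rose, with a median of -0.01, where 0.918% of all genes fell and 1.77% rose. The one that fell was MYC, which represses CDKN1A and activates CCND2 and CDK4 in other systems: 127, 107 and 115 CPM in weakly adherent cells, against 159 and 143 CPM in strongly adherent cells (log2 fold change -0.37, SE 0.08, edgeR adjusted p = 0.038). That call ended without the strongly adherent 6 March library (0.32) or the weakly adherent one of 12 March (0.16) or 15 March (0.12), and with the coding length trend removed (0.055).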

How the data were processed

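RNA of 3 weakly and 2 strongly adherent MDA-MB231 samples was sequenced as 50 bp single-end reads from a stranded TruSeq kit, per the labels' protocols. Tools listed in the submitters' processing notes are STAR, HTSeq, cutadapt, FastQC and DESeq2, with the build hg19. The authors deposited raw counts per gene symbol, which were tested here, and a table of log2 values, which equal log2(count / size factor + 1) as checked on the file. The 5 HTSeq rows that name no gene (26.2% to 27.4% of all counts) stayed out. Counts were fitted over all genes with edgeR 4.0.16 in R 4.3.3 (TMM, filterByExpr, robust quasi-likelihood F test, Benjamini-Hochberg adjusted p under 0.05, 3 residual degrees of freedom, biological coefficient of variation 7.91%). A standard error follows from the fold change and F, and a 95% interval from that and the fitted degrees of freedom. Fits were tested on simulated data of independent libraries with no date effect, so the use of the block for shared dates was not tested there.

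The 10 genes and the gene lists were chosen with earlier results of these data known. From each list the called members (at most 4, by p), or else the 2 with the smallest p, are named, and always MYC, SKP2, RB1 and E2F1; another gene and a list around it are not reported here. Alternatives were DESeq2 1.42.0, its size factors, limma-voom (limma 3.58.1), other count filters, the deposited log2 values (pseudocount 1 or 5), each library left out, the date as a block, and each library's trend with transcript or coding length removed (spline, 5 degrees of freedom; GENCODE 29 lengths by symbol, known for 93.3% and 88.4% of tested genes). The titles give the dates that pair libraries of the groups: the correlation of same-date deviations from the group means was 0.335 for 6 March and 0.204 for 15 March, against -0.156 and 0.156 for the weakly adherent library of 12 March set against strongly adherent 6 and 15 March libraries. Deviations of only 2 strongly adherent libraries mirror each other, so the last 2 values are the same number with its sign turned. None of these correlations is independent of the others. Between replicates, chi-square over its degrees of freedom was 7.19 to 12.0, above sampling noise. Values within each date pair, for genes and for ratios, were added after seeing the data. Intervals for 0 reads cover counting error only. Figures were drawn with matplotlib 3.10.9.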

Additional observations from a re-analysis of the deposited data

Results flagged for a closer look

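CDKN1B had opposite signs in the 2 date pairs: its log2 difference, weakly minus strongly adherent, was -0.04 on 6 March and 0.09 on 15 March. Each pair holds 1 library per side, so the difference between the dates was not tested, and both values are smaller than the SE of 0.11 of the gene's log2 fold change.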

How the results depend on the processing

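Against 235 genes called higher and 122 lower, the paired fit (replicate block by shared date) called 825 and 702, or 666 and 769 with the transcript length trend removed and 603 and 695 with the coding length trend removed. Without the block, removing the coding length trend left 127 higher, and with no filter on low counts 203 were lower. With 1 library left out, 82 to 238 were higher and 34 to 103 lower, fewest without the strongly adherent 6 March library. Of the members, 5 were lower and 1 higher with the block, 4 and 0 with the block and the transcript length trend removed, and 3 and 1 with the block and the coding length trend removed. Either length trend removed alone, at least 1 CPM in 2 libraries, limma-voom and both fits of log2 values left 1 lower, CCNE1. With 1 library left out, 0 to 1 member was lower and 0 to 1 higher. E2F targets called lower numbered 18 in each fit with the block and 3 to 7 with 1 library left out. CDKN1C ranged from -0.22 to 0.33 with 1 library left out and RB1 from -0.09 to 0.15, with RB1 at -0.10 with the block and at -0.08 and -0.10 with the block and the transcript or coding length trend removed. Over 24 named genes and 17 alternatives, 346 of 408 results kept direction and call, 38 lost the call, 16 gained it and 8 changed sign. The cause of these shifts was not tested. The block leaves 1 residual degree of freedom. CDKN1C had the fewest reads of the 10 genes, 67 to 158, and the part of depth in its interval was not tested.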
